A study of Saccharomyces cerevisiae with 4 samples.

Results

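The respiratory chain of the yeast mitochondrion passes electrons from succinate dehydrogenase (complex II) and other dehydrogenases to the cytochrome bc1 complex (complex III), by cytochrome c to cytochrome c oxidase (complex IV) and so to oxygen, while ATP synthase uses the proton gradient that results. Budding yeast has no proton-pumping complex I. On glucose it ferments, and transcription of many of these genes is repressed; they rise when glucose runs out, through the Hap2/3/4/5 activator and, with heme and oxygen, Hap1. The genes described here were chosen by name: every gene of the reference gene table called COX, QCR, ATP or SDH with a number, plus CYC1, CYC7, CYT1, COR1, RIP1 and COB. This gave 65 genes, of which 50 had a value on all 4 arrays and could be tested, out of 4730 genes tested in the series.

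The data are 4 two-colour microarrays of Saccharomyces cerevisiae lacking RLM1, a transcription factor activated by the cell wall integrity kinase Slt2. On each array, RNA from a culture grown at 24 °C in YEPD, a rich glucose medium, and given Zymolyase 100T at 5 units/ml was compared with RNA from the untreated part of a culture of the same rlm1 mutant; all cells, the untreated ones included, carried the mutation. Zymolyase digests the glucan of the cell wall, and cells were collected at 3 hours. Per the design text the RNA of 2 cultures was used, and each went on a pair of arrays with dyes swapped, so n = 2 cultures; no wild-type cells were analysed here, and nothing in these values separates what the mutation does from what any strain would do. RNA came from whole cultures, so a lower level in every cell and a low level in a part of the cells cannot be told apart.

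All values are log2 ratios of zymolyase over untreated, so that a positive value means more RNA after zymolyase. The RNA of treated cells was labelled with Cy3 for arrays 1 and 3 and with Cy5 for the other arrays, whose deposited ratios were therefore multiplied by -1. The log base and the numerator of the deposited ratio are stated in no source used here; base 2 and Cy3 over Cy5 were taken. The sign rests on known stress genes such as HSP12, which had 3.22, 3.09, 2.52 and 2.17 on arrays 1 to 4 after this step, and GPD1, which had 2.37, 2.20, 1.42 and 1.38. As deposited, their signs alternated with the dye, and zymolyase is known to activate the osmotic stress pathway, so this reading is likely but not settled; the opposite numerator would turn every sign below. RLM1 itself had no value on any array, so its absence could not be checked. Array 2 differed from the others in 2 ways: it held values for 4815 features against 5545 to 5659, and its ratios had an SD over features of 0.63 against 0.32 to 0.35.

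Of the 65 genes, 11 had no row in the table under their current or an older reading-frame name and were not analysed here. They include the 6 genes of mitochondrial DNA that carry these names (COX1, COX2, COX3, COB, ATP6 and ATP8), which encode the catalytic core of complex IV, cytochrome b and membrane subunits of ATP synthase. The other 5 were the small nuclear genes COX19, COX26, SDH6, ATP18 and ATP19. SDH9, which encodes a relative of the flavoprotein Sdh1, had a row with no value. CYC7, COX16 and ATP10 lacked a value on array 2 and had 3. All statements below are therefore about nuclear genes.

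Little change of the respiratory genes was detectable after zymolyase. One of the 50 passed the test, CYC1, which was lower, and 49 did not pass. The means of the 50 lay between -0.52 for CYC1 and 0.35 for SDH4, and 43 were within 0.25 of zero. The median of the means was 0.049, against -0.011 for all 4730 genes. Each gene's culture means were tested against 0 with limma, and a gene passed where its Benjamini-Hochberg adjusted p over all genes was under 0.05 whichever way the arrays were paired into cultures, which the labels do not settle. Across all genes 3.15% passed, 2.35% higher and 0.803% lower, so that 1 of 50 is near the background. At an unadjusted p under 0.05 in both pairings there were 3 respiratory genes, SDH4 above and ATP20 and CYC1 below, against 12.5% of all genes. The fit gave every gene the same standard error, 0.16, and so a 95% interval of 0.32 on either side of its mean; the smallest mean that passed was 0.51. Changes of less than that size could not be called with 2 cultures.

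**Figure D1:**
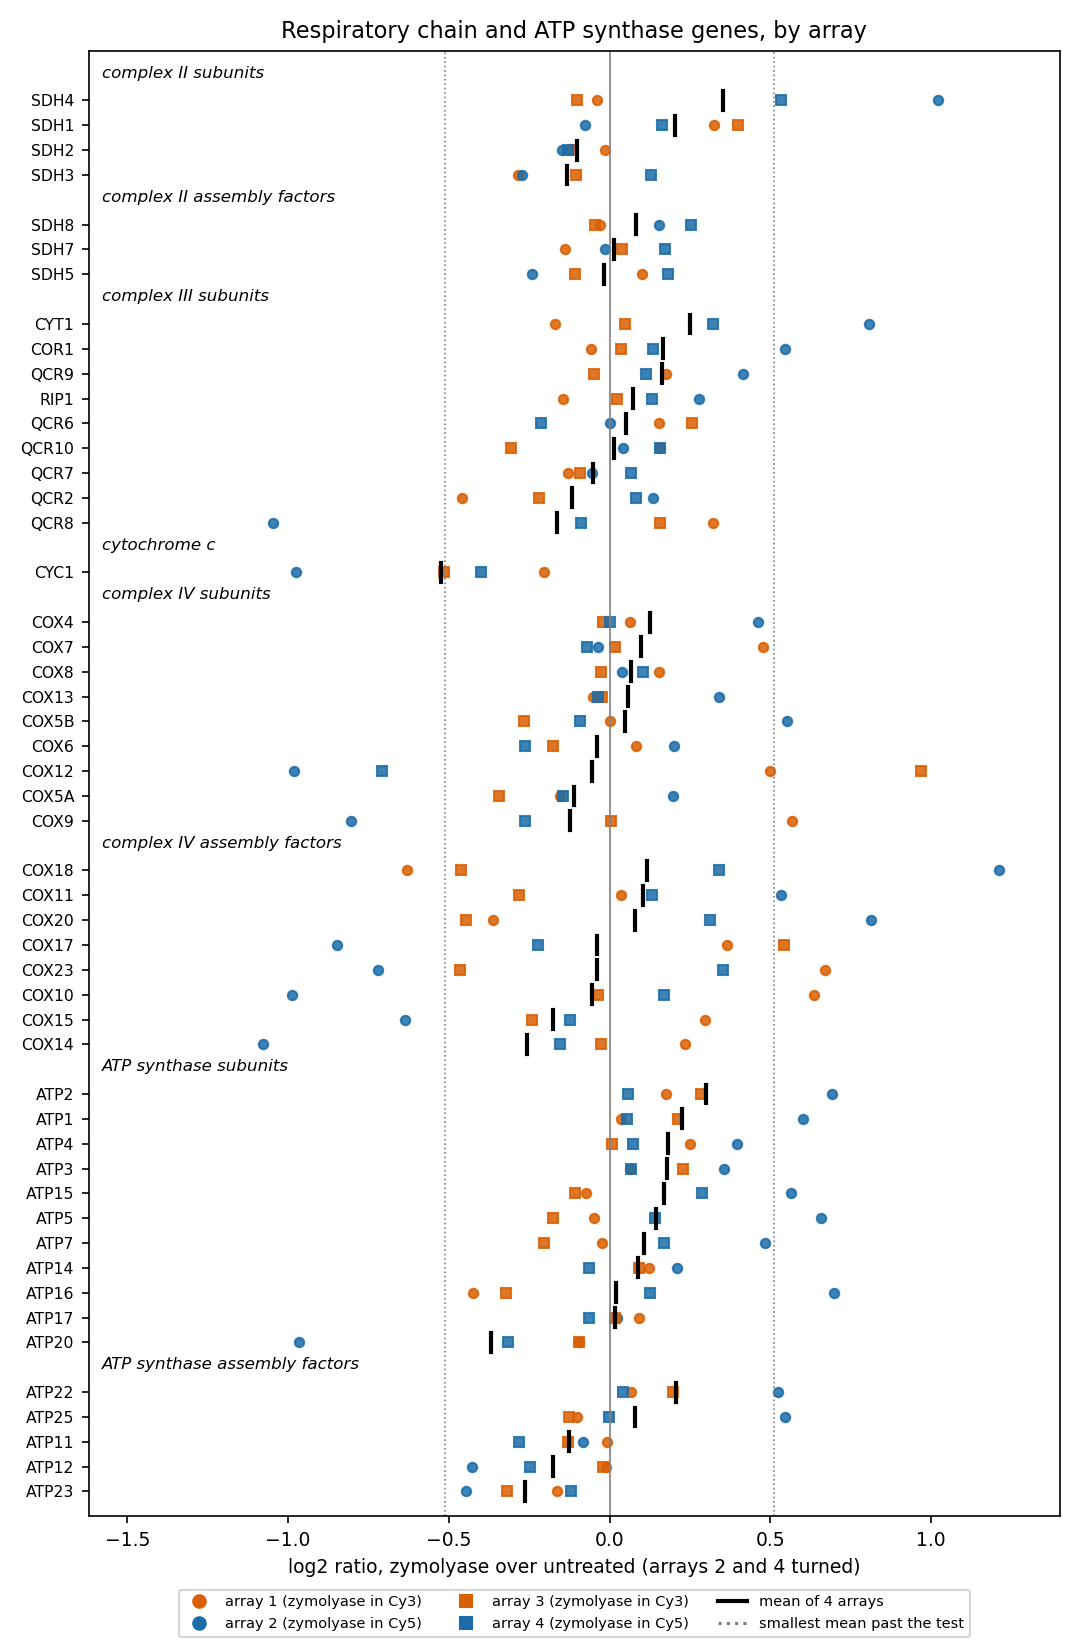
Log2 ratio of zymolyase over untreated (x axis) for the 50 respiratory chain and ATP synthase genes with a value on all 4 arrays, in rows by complex. Symbols are single arrays, coloured by the dye of the zymolyase RNA, black bars are means of the 4 arrays, and dotted lines mark the smallest mean that passed the test, 0.51 in size. The mean of CYC1 alone lies past a dotted line, and many of the points farthest from 0 belong to array 2.

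**Figure D2:**
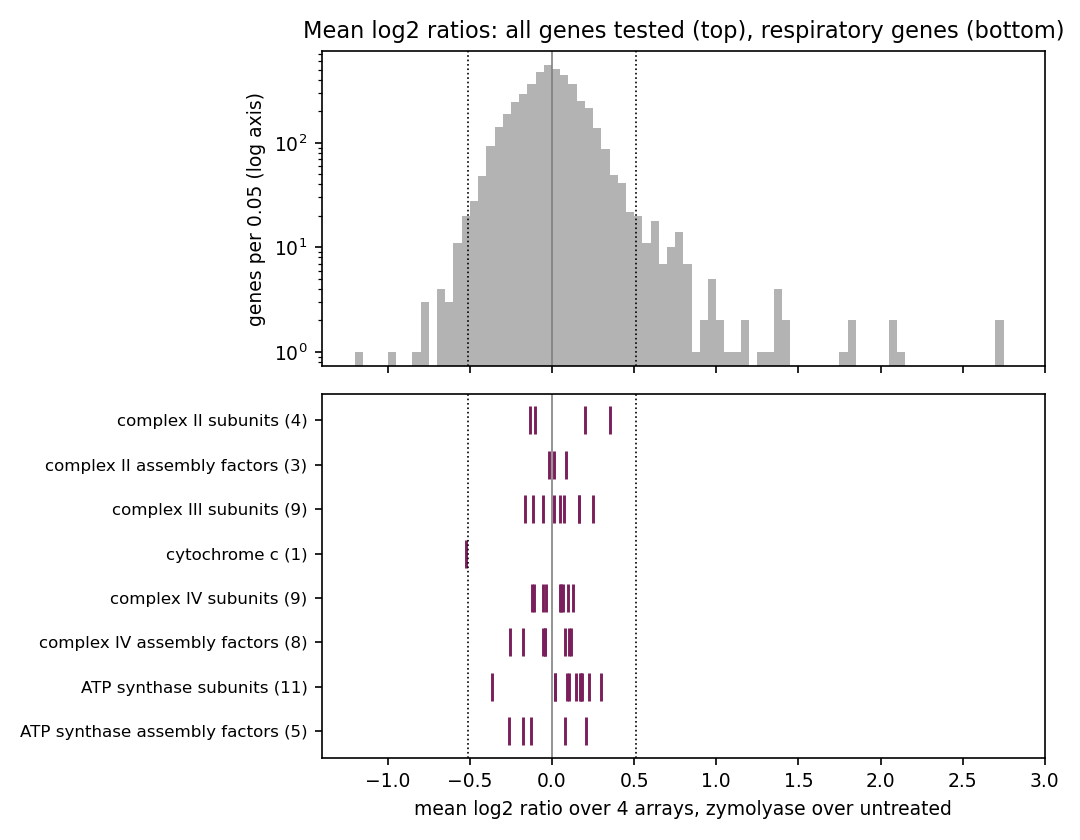
Top, the number of genes (log axis) by mean log2 ratio over 4 arrays for all 4730 genes tested. Bottom, a tick for each of the 50 respiratory genes by complex, on the same x axis, with the smallest called mean as dotted lines; the ticks lie within the bulk of all genes, between -0.52 and 0.35.

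Cytochrome c is the small heme protein that carries electrons from complex III to complex IV. Yeast has a major form encoded by CYC1, induced by oxygen and heme, and a minor form encoded by CYC7, known for its expression at low oxygen. CYC1 (YJR048W) had log2 ratios of -0.20, -0.98, -0.52 and -0.40 on arrays 1 to 4. It was below 0 on every array, and farthest below on array 2. Its mean fell by 0.52 on the log2 scale (SD 0.33, n = 4 arrays; 95% interval -0.84 to -0.21; limma adjusted p = 0.043), that is to 0.695 of the untreated level. This call is a marginal one, just past the smallest called mean of 0.51, and it was lost in 9 of 12 alternatives, among them a dye term fitted to all 4 arrays (mean -0.52, adjusted p = 0.13), median centring of the arrays (mean -0.53, adjusted p = 0.12) and the fit without eBayes (mean -0.52, adjusted p = 0.87). With the dye term and without eBayes the mean is the same by construction, so only the p could change there. The 12 include each pairing alone, where the call had to hold because the main test asks for both. Over the 12, the adjusted p ran from 0.023 to 1.00. The mean balanced over the dye orientations was -0.60 without array 1, -0.38 without array 2, -0.45 without array 3 and -0.67 without array 4. Of these fits, the call held only without array 4. In each of them the array left alone in its orientation added nothing to the error. Without array 4 that was array 2, so the call kept there adds no support. Taking the deposited ratios as already turned for the dye, which is among the 9, would give CYC1 a mean of 0.16. Under that reading HSP12 and GPD1 would change sign with the dye.

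CYC7 (YEL039C) had log2 ratios of 0.42, -0.20 and -0.13 on arrays 1, 3 and 4. It was above 0 on array 1 and below 0 on the others, and a dye-term fit of the genes with at least 3 values gave -0.012 (adjusted p = 0.99). The difference between the 2 cytochrome c genes was not tested, because CYC7 did not enter the main test. The genes are similar in sequence, and their spots may share some labelled cDNA.

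Complex II links the citric acid cycle to the chain. Its flavoprotein Sdh1 oxidises succinate, the iron-sulfur protein Sdh2 passes the electrons on, and Sdh3 and Sdh4 anchor both in the membrane. None of the 4 subunit genes passed the test. SDH4 had the highest mean of all 50 respiratory genes, 0.35 ± 0.53 (SD, n = 4 arrays; adjusted p = 0.32). Its log2 ratios were -0.041, 1.02, -0.10 and 0.53 on arrays 1 to 4, so that its mean came from the arrays with zymolyase in Cy5, while arrays 1 and 3 lay slightly below 0. SDH3, the other anchor, had -0.28, -0.27, -0.10 and 0.13 and a mean of -0.13, the lowest of the complex.

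SDH1 had log2 ratios of 0.32, -0.077, 0.40 and 0.16 on arrays 1 to 4, above 0 on all but array 2, with a mean of 0.20 ± 0.21 (adjusted p = 0.70). SDH2 was the steadiest of the 4 genes, at -0.016, -0.15, -0.11 and -0.13, below 0 on every array but by at most 0.15. The assembly genes stayed near 0: SDH8, whose product binds the flavinated Sdh1, had a mean of 0.083, SDH7, which protects the iron-sulfur subunit, 0.014, and SDH5, which attaches the flavin to Sdh1, -0.017. None of these 3 passed either.

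Complex III takes electrons from ubiquinol. Of its 9 nuclear subunit genes none passed, 6 had a positive mean and none had the same sign on all 4 arrays. CYT1, which encodes cytochrome c1, had the highest mean, 0.25 ± 0.42 (adjusted p = 0.57), from log2 ratios of -0.17, 0.81, 0.049 and 0.32 on arrays 1 to 4. It was below 0 on array 1 and clearly above 0 on arrays 2 and 4. The lowest mean belonged to QCR8, a small subunit that lies against cytochrome b, at -0.16 ± 0.61 (adjusted p = 0.80). Its ratios were 0.32, -1.05, 0.16 and -0.088; array 2 alone set the mean below 0, and the mean without array 2, balanced over the orientations, was 0.076. RIP1, the Rieske iron-sulfur protein, and COR1 and QCR2, the core proteins on the matrix side, had means of 0.071, 0.16 and -0.12. The means of QCR6, QCR7, QCR9 and QCR10 lay between -0.052 and 0.16.

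Complex IV reduces oxygen to water. The 9 nuclear subunit genes tested surround the core that mitochondrial DNA encodes, and none passed. Their means formed the narrowest range of any set with 9 or more genes, from -0.12 to 0.13. COX4 was highest, with log2 ratios of 0.062, 0.46, -0.019 and 0.0017 on arrays 1 to 4, of which array 2 stood apart. COX9 was lowest, with 0.57, -0.80, 0.0046 and -0.26, high on array 1 and low on array 2.

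Subunit 5 exists in an aerobic form, COX5A, and a hypoxic form, COX5B, which replace each other in the enzyme. COX5A had log2 ratios of -0.15, 0.20, -0.34 and -0.15 and a mean of -0.11 ± 0.23 (adjusted p = 0.91). COX5B had 0.0017, 0.55, -0.27 and -0.093 and a mean of 0.048 ± 0.35 (adjusted p = 0.98). Both were above 0 on array 2 and below 0 on arrays 3 and 4, and on every array COX5B stood above COX5A; the difference was not tested. COX6, COX7, COX8, COX12 and COX13 had means between -0.056 and 0.097.

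The assembly factors of complex IV supply heme A, copper and membrane insertion. Of the 8 tested none passed, and 3 had a positive mean. They varied more between arrays than any other set here: their median SD over the 4 arrays was 0.61, against 0.23 for complex IV subunits and 0.30 for all genes tested. On array 2, all 8 had their value farthest from 0, against 62.1% of all genes. COX18, which helps to export the tail of Cox2, had the highest mean, 0.11 ± 0.84 (adjusted p = 0.90), yet its log2 ratios of -0.63, 1.21, -0.46 and 0.34 had opposite signs in the dye orientations. COX14, which couples the synthesis of Cox1 to assembly, had the lowest, -0.26 ± 0.57 (adjusted p = 0.56); its ratios were 0.23, -1.08, -0.025 and -0.15, and without array 2 the balanced mean was -0.025.

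COX10 and COX15, the enzymes of heme A synthesis, had means of -0.055 and -0.18. The copper factors COX11, COX17 and COX23 had 0.10, -0.040 and -0.041, and COX20, a chaperone of Cox2, 0.079. COX16 had log2 ratios of 0.65, 0.16 and 0.11 on arrays 1, 3 and 4, all above 0, and in the dye-term fit an estimate of 0.26 (adjusted p = 0.58).

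ATP synthase consists of the catalytic F1 head and a stalk and membrane part. None of its 11 nuclear subunit genes tested passed, but 10 had a positive mean, against 47.4% of all genes, and the median of the means was 0.14. The head subunits alpha, beta and gamma, encoded by ATP1, ATP2 and ATP3, were above 0 on all 4 arrays. ATP2 had the highest mean, 0.30 ± 0.28 (adjusted p = 0.45), from log2 ratios of 0.17, 0.69, 0.28 and 0.056 on arrays 1 to 4. ATP1 had 0.034, 0.60, 0.21 and 0.053, and ATP3 0.064, 0.36, 0.23 and 0.065. In ATP1 and ATP2 array 2 was higher than the other arrays, which lay between 0.034 and 0.28.

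The small head subunits ATP15 and ATP16 had means of 0.17 and 0.018 and negative ratios on arrays 1 and 3. Of the stalk and membrane genes, ATP4, which encodes subunit b, was above 0 on every array with a mean of 0.18, and ATP5, ATP7, ATP14 and ATP17 had means between 0.017 and 0.14. ATP20, which encodes subunit g, a protein of the dimer interface, had the lowest mean of the 11, -0.37 ± 0.41 (adjusted p = 0.29). It had log2 ratios of -0.094, -0.97, -0.096 and -0.31, below 0 on all 4 arrays and farthest on array 2. The subunit median depended on array 2 as well: on arrays 1 to 4 it was 0.034, 0.48, 0.0078 and 0.065, and the median of the balanced means without array 2 was 0.027.

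Among the assembly genes of ATP synthase none of 5 passed. ATP23, which encodes the protease that matures Atp6, was lowest, with log2 ratios of -0.16, -0.45, -0.32 and -0.12 and a mean of -0.26 ± 0.15 (adjusted p = 0.54). ATP11 and ATP12, chaperones of the beta and alpha subunits, were also below 0 on all 4 arrays, with means of -0.13 and -0.18. ATP22, needed for translation of the ATP6 message, was highest and above 0 on all 4 arrays, at 0.066, 0.52, 0.20 and 0.041, with a mean of 0.21. ATP25, which serves the Atp9 ring, had a mean of 0.079, and ATP10, with -0.36, -0.0076 and 0.037 on arrays 1, 3 and 4, an estimate of -0.073 (adjusted p = 0.92).

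Compared by complex, the medians of the mean log2 ratio were 0.050 for the subunits of complex II, 0.050 for complex III, 0.048 for complex IV and 0.14 for ATP synthase. Those of the assembly factors were 0.014, -0.041 and -0.13 for complexes II, IV and ATP synthase. Medians this close to 0 depended on single arrays. With 1 array left out, in means balanced over the orientations, the complex IV assembly factors had -0.25 without array 4, -0.11 without array 1, 0.0046 without array 2 and 0.087 without array 3. The complex IV subunits had -0.018 without array 1 and 0.011 without array 2, and the complex II assembly factors -0.033 without array 4 and 0.035 to 0.088 without any other. The complex II subunits ranged from 0.017 without array 4 to 0.10 without array 2, and complex III from 0.030 without array 3 to 0.10 without array 4. The ATP synthase subunits ranged from 0.027 without array 2 to 0.24 without array 4, and their assembly factors from -0.16 without array 1 to -0.077 without array 4. The median of all 50 genes was 0.013 without array 2, 0.079 without array 3 and 0.090 without array 4. The ATP synthase assembly factors had a median below 0 on every array, at -0.010, -0.083, -0.13 and -0.12, and the ATP synthase subunits one above 0 on every array; both sets hold no gene that passed. For all 50 genes the medians were 0.018, 0.14, -0.047 and 0.060 on arrays 1 to 4, against -0.025, 0.068, -0.025 and -0.017 for all genes. No test was made over the genes of a complex, since they are not replicates.

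**Figure D3:**
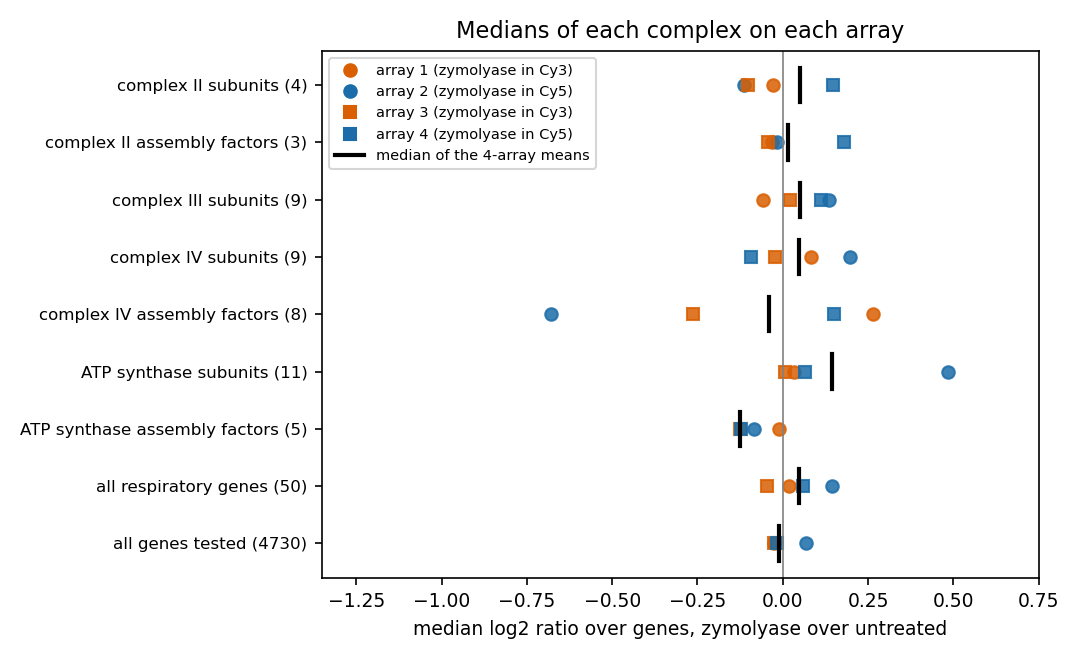
Median log2 ratio over the genes of each set (x axis) on each of the 4 arrays, with the number of genes tested in parentheses; symbols are arrays, coloured by the dye of the zymolyase RNA, and black bars the medians of the 4-array means. ATP synthase subunits lie near 0 on arrays 1, 3 and 4 and at 0.48 on array 2, and complex IV assembly factors spread from -0.68 to 0.27.

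Same-sign values on all 4 arrays were found for 11 of the 50 genes, or 22.0%, against 16.8% of all genes tested. Positive throughout were ATP1, ATP2, ATP3, ATP4 and ATP22, and negative throughout were ATP11, ATP12, ATP20, ATP23, CYC1 and SDH2. ATP synthase thus gave 9 of the 11, from 5 of its 11 subunit genes and 4 of its 5 assembly genes, in both directions. None came from the 9 subunit genes of complex III or the 9 subunit and 8 assembly genes of complex IV. The difference between complexes was not tested.

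The gap between the dye orientations was of about the same size in these genes as in all genes. The difference was taken between the mean of arrays 1 and 3 and that of arrays 2 and 4. Its median size was 0.31 over the 50 genes and 0.33 over all genes. The treatment mean had a median size of 0.11 over the 50 genes and 0.12 over all genes. A difference of 2-array means varies more than a 4-array mean by construction, so the gap and the mean are not on the same scale. In 31 of the 50 the orientations gave opposite signs, against 58.9% of all genes. Complex III had opposite signs in 8 of 9 genes, the complex IV assembly factors in 8 of 8.

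The widest gap belonged to COX12, a complex IV subunit on the side of the intermembrane space. It had log2 ratios of 0.50, -0.98, 0.97 and -0.71 on arrays 1 to 4: high on both Cy3 arrays of zymolyase RNA and low on both Cy5 arrays. Its orientation means were 0.73 and -0.85, a difference of 1.58 (limma adjusted p = 0.033 for the dye term), while its treatment mean was only -0.056. COX18 differed the other way, by -1.32 (adjusted p = 0.081), from orientation means of -0.55 on arrays 1 and 3 and 0.78 on arrays 2 and 4. COX17, the copper chaperone, had ratios of 0.37, -0.85, 0.54 and -0.22 and a difference of 0.99 (adjusted p = 0.10). Of the 50 genes COX12 alone passed for the dye term, against 0.423% of all genes. An equal dye effect cancels in the treatment means. If the deposited ratios were already turned, the dye gaps would instead be read as treatment, with means smaller than the gaps. COX12 (0.79) and COX17 (0.49) would then be called higher and COX18 (-0.66) and COX20 (-0.48) lower, and CYC1 would not be called. HSP12 and GPD1 would change sign with the dye under that reading.

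Over the 50 genes, arrays of the same orientation correlated at r = 0.46 (arrays 1 and 3) and 0.60 (arrays 2 and 4), and arrays of opposite orientation at -0.55 to -0.21. Over all 4730 genes these were 0.60 and 0.44, and -0.13 to 0.051. By this measure, Pearson correlation, opposite orientations were more negative in the respiratory genes, although the median size of the gap was about the same. Spearman rank correlations of opposite orientations ran from -0.43 to -0.11 over the 50 genes and from -0.21 to -0.095 over all genes. For arrays 2 and 3 the rank correlation was less negative in the respiratory genes, at -0.11 against -0.15, and for the other pairs more negative. The difference was not tested. These values are across genes that share arrays and dyes and describe only these hybridisations.

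**Figure D4:**
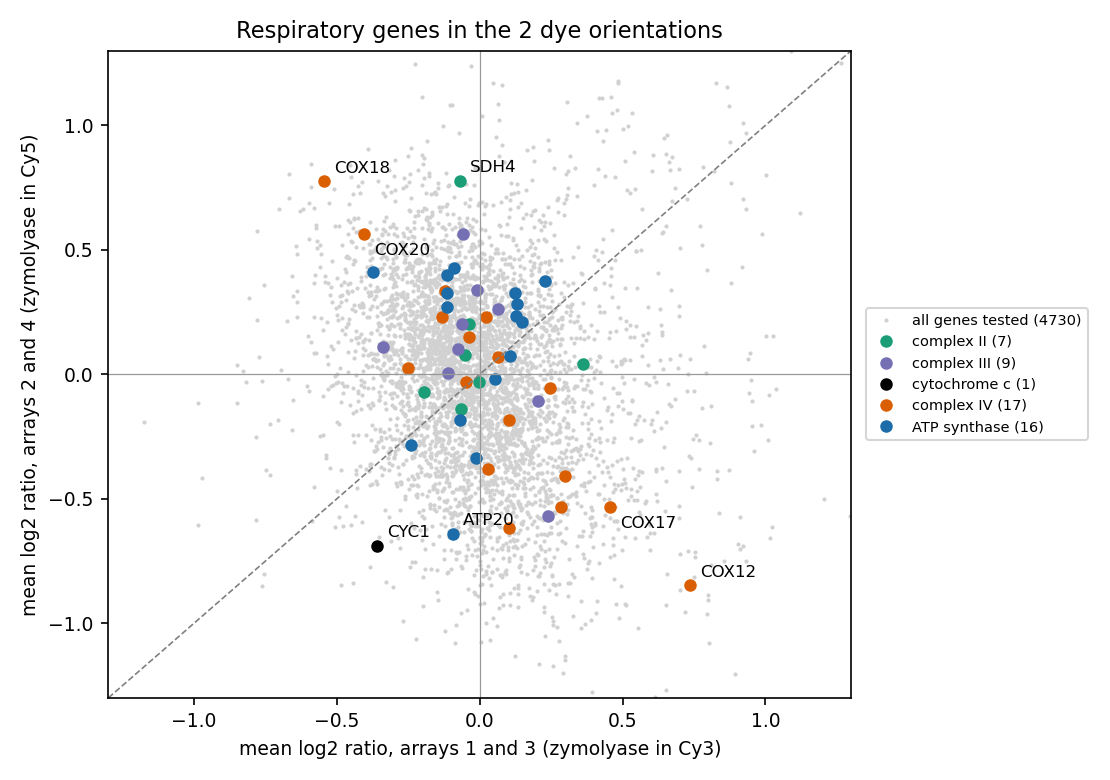
Mean log2 ratio of zymolyase over untreated on arrays 1 and 3 (x axis, zymolyase in Cy3) and on arrays 2 and 4 (y axis, zymolyase in Cy5), for all genes tested in grey and the respiratory genes in colour by complex; the dashed line marks equal values, and 33 genes, none of them respiratory, lie outside the axes. COX12 sits at 0.73 and -0.85, COX18 at -0.55 and 0.78, and CYC1 below 0 on both axes.

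Other genes of respiration, not covered by the names above, were set beside these: 84 genes in 4 lists, of which 68 were tested. Of the 68, 1 passed, STF2, which was higher. Across all genes 3.15% passed, 2.35% higher, so that 1 of 68 is near the background. STF2 is named for a factor that stabilises the complex of ATP synthase and its inhibitor and is also a known stress gene. It had log2 ratios of 1.13, 0.62, 0.63 and 0.11 on arrays 1 to 4, above 0 on each, with a mean of 0.62 ± 0.42 (adjusted p = 0.0065; 0.067 with a dye term). The call was lost without array 1, 2 or 3, where the balanced mean of STF2 was 0.50, 0.50 and 0.75. It held without array 4, where array 2 was alone in its orientation and added nothing to the error. Of the same list of 9 tested ATP synthase regulators and carriers, AAC3, a minor ADP/ATP carrier, was lowest at -0.16 ± 0.086, and the list median was 0.23. The inhibitor gene INH1 had a mean of -0.0095.

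None of 14 genes for other dehydrogenases and ubiquinone passed (median 0.11). GUT2, the mitochondrial glycerol 3-phosphate dehydrogenase that feeds electrons to ubiquinone, was highest, at 0.043, 0.39, 0.37 and 0.47, above 0 on all 4 arrays with a mean of 0.32 ± 0.19 (adjusted p = 0.40). COQ10 was lowest at -0.31 ± 0.68. Of 33 genes for assembly and mitochondrial gene expression none passed (median -0.030); NCA2 was highest at 0.30 ± 0.23 and the RNA helicase gene MSS116 lowest at -0.46 ± 0.91 (adjusted p = 0.11).

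The regulators of respiratory genes did not pass either, 0 of 12 (median 0.10). HAP1, the heme activator that drives CYC1 among other genes, was highest, with log2 ratios of 0.69, 0.42, 0.78 and -0.30 and a mean of 0.40 ± 0.49 (adjusted p = 0.21), above 0 on all but array 4. HAP3 was lowest at -0.14 ± 0.42, and ROX1, the repressor of hypoxic genes, had a mean of 0.22. HAP4, the regulated subunit of the Hap2/3/4/5 activator, did not have a value on every array and was not tested.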

How the data were processed

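The series holds 4 two-colour arrays of Cy3 and Cy5 labelled cDNA, per the labels' protocols. The authors' deposited values are 1 log ratio per feature and array, taken as log2; no source used here gives the scanner, background correction, normalization, rule for blank values, numerator or log base. The columns arrived centred, with medians between -0.070 and 0.017, and were used as deposited, except that arrays 2 and 4 were multiplied by -1. Spot intensities were not used here, and precision is limited by the number of arrays.

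Of 6209 features, 2 controls were left out, 5709 matched a gene of the RefSeq R64 gene table, used for names only (55 by an older name), and the rest kept their names. Reading frames now in 1 gene were averaged, which left 6172 genes, 4730 with a value on all 4 arrays. Arrays were averaged into 2 cultures under both possible pairings (1 with 2 and 3 with 4, or 1 with 4 and 2 with 3) and tested against 0 with limma 3.58.1 (lmFit, eBayes) in R 4.3.3; passing needed a Benjamini-Hochberg adjusted p below 0.05 in each, and the larger is given. limma found an infinite prior, so all genes share 1 standard error. The SD beside a mean is over 4 arrays, which hold 2 cultures. Alternatives were a dye term over 4 arrays, each pairing alone, median centring, a common spread, at least 3 values, no turning, no eBayes, and leaving out each array (with a dye term). The script was tested on simulated data with the same noise SD for all genes and arrays. That simulation cannot check the shared standard error or the effect of array 2's wider spread. The genes named are those that passed, the highest and lowest mean of each set, the pairs CYC1 and CYC7, COX5A and COX5B, SDH1 and SDH9, and the 3 widest dye differences; other members are given by their means. Members and lists were chosen with earlier results of these data known.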

Additional observations from a re-analysis of the deposited data

Results flagged for a closer look

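Over the 4 arrays, 1 array stood far from the other 3 in 3 of the 50 genes and in 2 of the 8 set medians tested. The measure is the gap to the nearest array over the whole range, set against the 95% critical value of Dixon's test, and chance passes about 1 group in 20. COX13 had a gap of 0.930 of its range, from log2 ratios of -0.051, 0.34, -0.024 and -0.038 on arrays 1 to 4, with array 2 high. In COX4 array 2 was also high (0.830), and in COX7 array 1 was high (0.837), with ratios of 0.48, -0.035, 0.018 and -0.072. The median of the ATP synthase subunits was set apart by array 2 (0.879), and that of the 3 complex II assembly factors by array 4 (0.872). The part of array 2's wider spread in these values was not tested.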

How the results depend on the processing

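With 2 cultures and 1 shared standard error, only means past about 0.5 could be called. No respiratory gene was higher in the main test or under any alternative that kept all 4 arrays and turned arrays 2 and 4; taking the ratios as already turned gave 2 higher (COX12, COX17) and 2 lower (COX18, COX20). CYC1, the 1 lower gene, remained under each pairing alone, which the main test already requires. The count of lower genes was 0 with a dye term over 4 arrays, with median centring, with a common spread, with at least 3 values per gene and without eBayes (0 of all genes; 35 at an unadjusted p under 0.05, none respiratory). Leaving out 1 array gave 0 to 4 higher and 0 to 4 lower. The 4 and 4 came without array 4 (ATP1, ATP2, CYT1 and SDH4 higher; ATP20, COX14, CYC1 and QCR8 lower), with a median standard error of 0.084. Without array 1, 2 or 3 no respiratory gene passed, at median standard errors of 0.24, 0.087 and 0.24. In these fits the error came only from the arrays that still shared a dye orientation. These were arrays 2 and 4 without array 1 or 3, and arrays 1 and 3 without array 2 or 4. The array left alone in its orientation added nothing to the error. Over all genes, 111 higher and 38 lower became 68 and 9 with a dye term, 83 and 14 with median centring, 49 and 7 with a common spread, 73 and 9 with at least 3 values, and 215 and 101 as already turned; with 1 array left out they ran from 23 to 421 and from 2 to 606. Set medians moved by more than their spread, the SD of the 4 array medians, only with the ratios as already turned. Then 0.050 became -0.10 for complex III, -0.13 became 0.022 for ATP synthase assembly factors, and 0.049 became -0.059 for all 50 genes. Under that reading a gene's mean holds its dye gap in place of its treatment mean. The spread itself is wide where arrays disagree, at 0.43 for complex IV assembly factors and 0.23 for ATP synthase subunits. A median that stayed within it can therefore still depend on 1 array. No paired analysis was possible because there is 1 group, whose arrays already hold both RNAs.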
